A study of Danio rerio with 55 samples.

Results

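H3K27me3, the trimethylated form of lysine 27 on histone H3, was mapped by ChIP-seq in MZezh2 mutant and wild-type zebrafish embryos at 24 hours post-fertilization (hpf). The data are 4 peak lists of the 55 samples of the series, 2 from MZezh2 mutant embryos and 2 from wild-type embryos, chosen by the antibody named in the sample labels (Millipore). MZezh2 mutants lack Ezh2 from both the mother and the embryo. They carry the hu5670 nonsense allele, whose stop codon lies in the SET domain, the catalytic part of the protein, and came from mothers and fathers with a mutant germline obtained by germ cell transplantation. Wild-type embryos came from germline wild-type siblings of those parents. All embryos were whole embryos of the first generation on a TU/TLF mixed background, pooled for chromatin. Replicate 2 of both genotypes was immunoprecipitated together with Drosophila spike-in chromatin and its antibody, and replicate 1 of both genotypes without it. The input DNA, against which peaks were called, came from wild-type embryos of the AB strain.

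Polycomb group proteins keep developmental genes silent in cells that should not use them. Ezh2 is the catalytic subunit of Polycomb repressive complex 2 (PRC2), which writes H3K27me3. Polycomb repressive complex 1 (PRC1) can bind the mark, and its catalytic subunit Rnf2 ubiquitylates histone H2A. Hox gene clusters and other genes for developmental transcription factors are known targets, and on them the mark can extend over broad domains instead of narrow peaks. H3K4me3 marks active and poised promoters.

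Each list holds the broad peaks of 1 library with their position on GRCz10 and their mean fold enrichment over input. Read counts are not part of the lists, so the depth behind a peak is unknown. In all 4 H3K27me3 lists the peaks started at a −log10 q of 2.02 to 2.12. Whole embryos mix many cell types, so fewer cells with the mark and less of the mark per cell cannot be told apart. A check on the genotype came from the Ezh2 ChIP-seq of the same series, in which 21 and 699 peaks were listed in MZezh2 mutants, against 3940 and 2137 in wild types. Those Ezh2 lists started at a −log10 q of 2.04 and 1.01 in mutants and of 1.01 and 1.02 in wild types. The Rnf2 and H3K4me3 lists started at 2.02 to 2.06. Ezh2 values are therefore not at the same threshold in every list, nor at that of the other antibodies. Pairs of replicates of 1 antibody were unequal. Rnf2 gave 656 and 348 peaks in mutants, against 19509 and 991 peaks in wild types. No gene annotation of GRCz10 was used, so peaks are given by position.

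The first comparison asked how much H3K27me3 was still listed without Ezh2. The mutant lists were short and their peaks narrow, with no listed peak of 10 kb or more. MZezh2 mutants had 287 and 756 peaks, against 6918 and 5283 peaks in wild types. The genotypes did not overlap, and the mean number of peaks was 11.7-fold lower in mutants (521.5 ± 332 in mutants and 6100.5 ± 1156 in wild types; SD, n = 2 each). The peaks covered 148273 and 452407 bp in mutants, against 11819222 and 8105468 bp in wild types. Mean covered length in mutants was 3.01% of that in wild types, 33.2-fold lower. Covered length therefore differed more between genotypes than peak number did.

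With 2 samples against 2, an exact two-sided permutation test cannot give a p below 0.333, and both comparisons gave p = 0.333. Within replicate 1, mutant covered length was 1.25% of wild type, and within replicate 2 it was 5.58%. Replicate 2 carried the spike-in, but the lists are not scaled to it. After such scaling, the paper reported a larger drop in H3K27me3 coverage in mutants than without it. The wild-type lists differed 1.46-fold in covered length and the mutant lists 3.05-fold. Both spreads were smaller than the 17.9-fold difference between genotypes within replicate 2.

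Peak width separated the genotypes as well. Median width was 285 and 312.5 bp in mutants, against 807.5 and 671 bp in wild types (difference −440.5 bp, exact permutation p = 0.333). The widest listed peak measured 5376 and 8338 bp in mutants, against 106095 and 84109 bp in wild types. No mutant peak reached 10 kb, while 176 and 123 wild-type peaks did. In wild types those domains made up only 2.54 and 2.33% of the peaks but held 25.03 and 23.16% of the covered length. Peaks of at least 5 kb held 3.63 and 5.71% of the covered length in mutants and 42.1 and 43.3% in wild types, a difference of −38.1 percentage points (exact permutation p = 0.333). This depended on the merging distance. With peaks less than 3 kb apart merged, the shares were 57.0 and 54.9% in mutants and 57.1 and 61.4% in wild types, a difference of −3.29 points. The longest merged mutant domains were then 23450 and 25837 bp, and merged domains of at least 10 kb numbered 4 and 14 in mutants and 283 and 223 in wild types.

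The wider the class, the lower was the number of mutant peaks relative to wild-type peaks, both counted from their own lists. Mutants had on average 16.2% as many peaks as wild types below 500 bp. The ratio was 6.58% from 500 bp to 1 kb and 4.55% from 1 to 2 kb. It was 2.62% from 2 to 5 kb and 0.962% from 5 to 10 kb. Above 10 kb the mutant count was 0, against a mean of 149.5 domains in wild types.

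**Figure D1:**
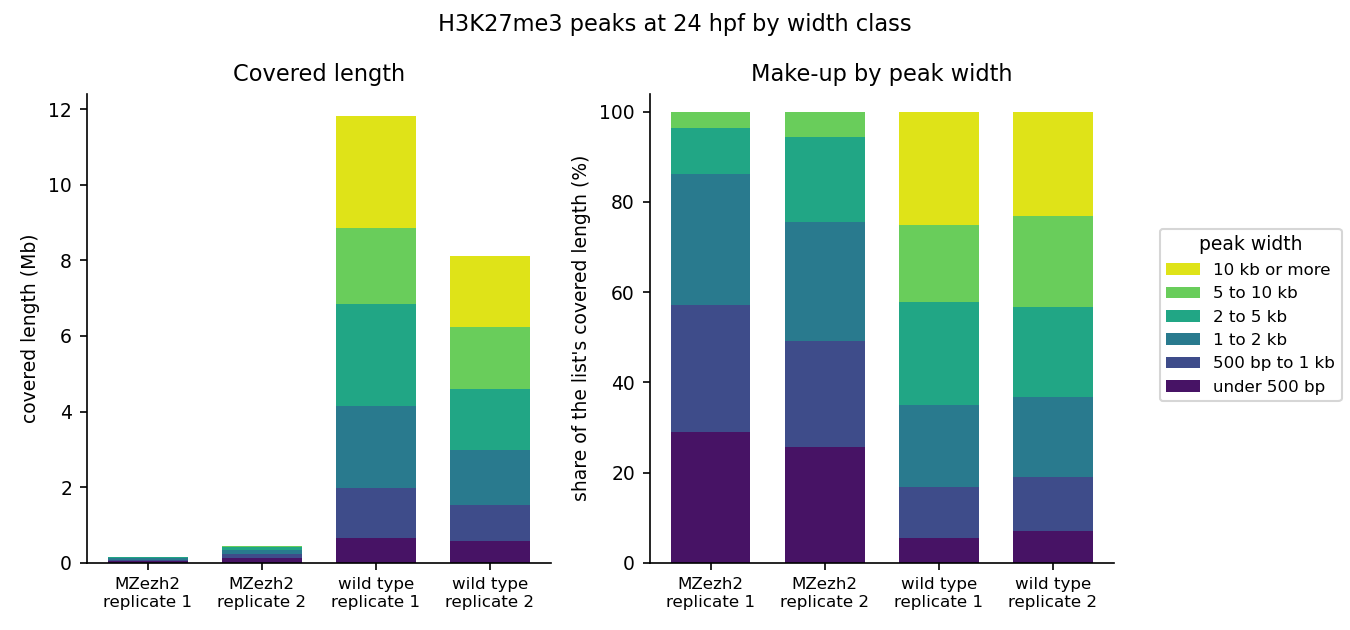
Covered length of the H3K27me3 peaks in each list in Mb (left) and the percent of it in each class of peak width (right), with 1 bar per replicate, MZezh2 mutants left of wild types. The mutant bars reach 148273 and 452407 bp and hold no domain of 10 kb or more, whereas such domains make up 25.03 and 23.16% of the wild-type bars.

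Fold enrichment was then compared, since the narrow peaks of mutants could be weak or strong. Over all peaks the median was slightly higher in mutants, at 4.43 and 4.04, than in wild types, at 3.81 and 3.93 (difference 0.365, exact permutation p = 0.333). Weighted by covered length, the order of the genotypes was the other way round, with 4.57 and 3.99 in mutants and 5.12 and 4.83 in wild types. The median also turned with the choice of peaks. Among peaks of at least 500 bp the difference was −0.425, but the genotypes overlapped. Among peaks with a −log10 q of at least 5 the difference was −0.906, without overlap (4.69 and 3.52 in mutants, 5.07 and 4.95 in wild types).

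Width and enrichment were linked in opposite directions. Across the peaks of a list, the Spearman correlation of width with enrichment was −0.279 and −0.339 in mutants (287 and 756 peaks) and 0.573 and 0.478 in wild types (6918 and 5283 peaks). These are descriptions across peaks, which are not independent. In the mutant lists the median enrichment was 4.60 and 4.45 below 500 bp and 3.86 and 2.73 from 5 to 10 kb, where replicate 1 had a single peak. In wild types it was 3.57 and 3.71 below 500 bp, and it reached 5.86 and 5.42 from 5 to 10 kb and 6.49 and 5.71 in domains of at least 10 kb.

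**Figure D2:**
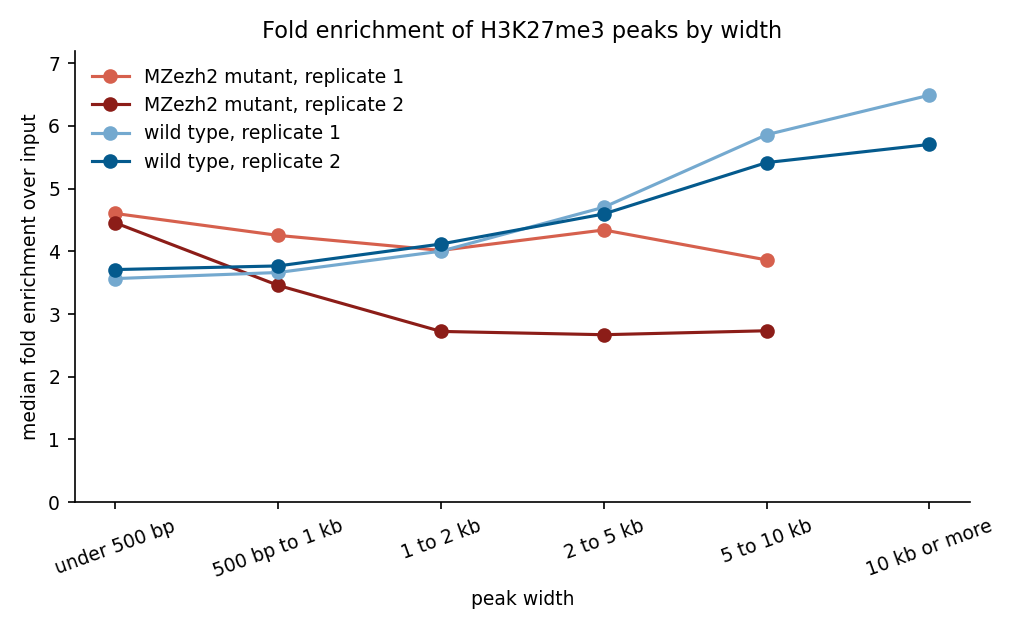
Median fold enrichment over input of the H3K27me3 peaks in each class of peak width, with 1 line per replicate. Both wild-type lines climb to 6.49 and 5.71 in domains of 10 kb or more, while the mutant lines start at 4.60 and 4.45 in the narrowest class and end in the class of 5 to 10 kb.

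The strongest peaks of the mutants were very narrow. An enrichment of at least 10 was reached by 11 and 33 peaks in mutants, with a median width of 172 and 254 bp, and by 3 and 18 peaks in wild types, with a median width of 259 and 239 bp. The most enriched peak of mutant replicate 1 lay at chr13:40038793-40038958, 166 bp with an enrichment of 27.6. The same place was listed in the other mutant with 20.8 and in wild types with 16.2 and 8.86. Ezh2 was listed there in every Ezh2 list, at 27.16 and 31.79 in mutants and at 26.02 and 32.10 in wild types. Rnf2 was listed there at 72.9 in mutant replicate 1 and at 83.8 in wild-type replicate 1, and in neither replicate 2. H3K4me3 was listed in wild-type replicate 1 only, at 9.53. Why Ezh2 was listed there in mutants was not tested.

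In mutant replicate 2 the most enriched peak, at chr16:7576742-7577084, was 343 bp wide and reached 74.2. It was listed at 29.8 in wild-type replicate 2 and in no replicate 1 list of H3K27me3. Ezh2 was listed at the same place with 68.1 in mutant replicate 2 and 56.8 in wild-type replicate 2. The 5 most enriched peaks of mutant replicate 2 were all listed for Ezh2 in replicate 2 of both genotypes and in no Ezh2 list of replicate 1. All were listed for H3K27me3 in wild-type replicate 2, and only chr11:1209292-1209921 also in a replicate 1, at 4.32 in wild type. None was listed in any Rnf2 or H3K4me3 list. Replicate 2 of H3K27me3 and of Ezh2 carried the spike-in, and whether these peaks are linked to it was not tested. Peaks called on the input alone were not removed here, and the part of such peaks in these values was not tested.

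Ranking peaks by the MACS2 score in place of enrichment gave another picture for wild-type replicate 2. The 250 peaks with the highest score had a median width of 309 and 473.5 bp in mutants, against 4611 and 441.5 bp in wild types, so that wild-type replicate 2 fell within the range of the mutants. Ranked by enrichment, the 250 top peaks of each list had a median width of 266 and 208.5 bp in mutants and 8174 and 5104.5 bp in wild types, without overlap between genotypes. In both rankings 250 peaks are most of the 287 of mutant replicate 1 and a large part of the 756 of mutant replicate 2. They are a small part of the 6918 and 5283 in wild types, so these widths are a description. At a shared cutoff, an enrichment of at least 10, the median widths given above were alike.

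Next, the places with a listed H3K27me3 peak in both replicates were compared. Peaks less than 1 kb apart were merged in each list and the merged lists of a genotype were intersected (at least 1 bp in common). This left 218 common intervals in mutants, of 171793 bp in all, and 3548 in wild types, of 7684888 bp in all. Their median width was 407.5 bp in mutants and 893 bp in wild types. The longest common interval was 5642 bp in mutants and 84109 bp in wild types, and 0 mutant and 158 wild-type intervals reached 10 kb. The 2 replicates shared 29.7% of the length listed in either in mutants and 57.1% in wild types. The unequal length of the 2 mutant lists limits their share. Of the length of replicate 1, 92.8% was also listed in replicate 2 in mutants and 61.2% in wild types. Of the length of replicate 2, 30.4% was also listed in replicate 1 in mutants and 89.3% in wild types. The paper, which removed peaks called on input, judged the few peaks left in its mutants to be most probably artefacts. Whether the mutant intervals here are of that kind was not tested.

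Agreement between wild-type replicates depended on width. Of the peaks below 500 bp, 21.3% of those in replicate 1 and 55.9% of those in replicate 2 were also listed in the other replicate. For domains of at least 10 kb these shares were 99.4 and 100%. Replicate 1 had the higher enrichment in 50.8% of the common intervals below 500 bp and in 99.4% of those of at least 10 kb, with a median difference of 0.0109 and 0.954.

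Of the 3548 common wild-type intervals, 3342 (94.2%, 95% Wilson interval 93.4 to 94.9%) had no peak in either mutant list. Such intervals cover counting error only. In the narrowest class the share was 89.4%. It was 99.6% from 5 to 10 kb, and all 158 domains of at least 10 kb were without a mutant peak. In total, 1.64% of the length of the wild-type intervals was listed in a mutant, and 131 intervals had a peak in both mutants.

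The broadest wild-type intervals were also those where the Polycomb proteins were listed most often. Ezh2 was found in both wild-type Ezh2 lists in 8.58% of the H3K27me3 intervals below 500 bp, in 17.3% from 2 to 5 kb, in 51.9% from 5 to 10 kb and in 89.9% (142 of 158) of the domains of at least 10 kb. Rnf2 in both lists went with 1.06, 25.8, 79.0 and 94.9% of the same 4 classes. The shares of the narrower classes depend on the shorter list of each antibody: with a peak in at least 1 wild-type list, they were 20.7, 68.7, 97.0 and 99.4% for Ezh2 and 30.9, 70.3, 94.8 and 97.5% for Rnf2. The wild-type Ezh2 lists started at a lower −log10 q than those of Rnf2. A wide interval also has more bases in which another peak can fall, so these shares are a description. H3K4me3 in all 3 wild-type lists was found in 7.78% of the narrowest intervals and in 26.6% of the domains of at least 10 kb. With H3K4me3 in at least 1 wild-type list, these shares were 27.7 and 55.1%.

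**Figure D3:**
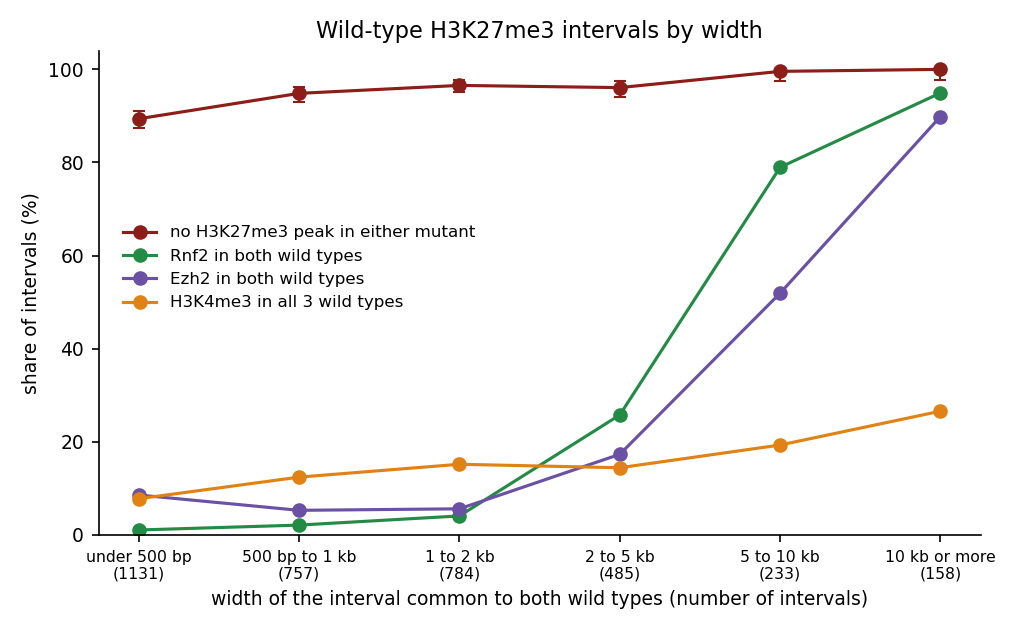
Share of the 3548 H3K27me3 intervals common to both wild types, by width, that had no H3K27me3 peak in either mutant list (red, with 95% Wilson intervals) or that held Rnf2, Ezh2 or H3K4me3 in every wild-type list of that antibody. The red line lies between 89.4 and 100% in every class, and the Rnf2 and Ezh2 lines reach 94.9 and 89.9% in the broadest class.

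The domains behind these counts can be followed by position. The longest common wild-type domain lay at chr23:35941376-36025484 and measured 84109 bp. It had no H3K27me3 and no Ezh2 peak in either mutant. In wild types it was listed over its whole length with an enrichment of 6.74 and 5.44. Rnf2 covered 589 and 1904 bp of it in mutants, against 83245 and 68806 bp in wild types. Ezh2 covered 78407 and 7358 bp of it in wild types, an unequal pair.

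The next longest were chr19:20141387-20219568 with 78182 bp, chr3:23555879-23624205 with 68327 bp, chr9:1957651-2012138 with 54488 bp and chr17:38284309-38329131 with 44823 bp. The domain at chr3:23511890-23553706, of 41817 bp, ended close to the start of the other chromosome 3 domain. In wild-type replicate 1 alone, 1 merged domain at chr3:23506831-23626269 spanned both. It measured 119439 bp and was the longest of that list, so the order depends on a gap in replicate 2. The remaining 4 of the 10 longest lay at chr11:2097558-2137087 (39530 bp), chr9:31447316-31482537 (35222 bp), chr24:4934037-4966516 (32480 bp) and chr5:49086383-49117808 (31426 bp). In all 10, both mutants had 0 bp of H3K27me3 and 0 bp of Ezh2. Rnf2 was still listed in a mutant in most of them. At chr3:23555879-23624205 it covered 625 and 3676 bp in mutants, against 66355 and 31968 bp in wild types. It was listed in neither mutant in the chromosome 17 domain, at chr9:31447316-31482537 and at chr5:49086383-49117808. Wild-type H3K27me3 enrichment in the 10 domains was between 4.65 and 7.51, highest in the chromosome 17 domain.

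In zebrafish the hox clusters lie on 7 chromosomes, by the 49 hox genes of the RefSeq table of the GRCz12tu assembly: 3 (hoxba), 9 (hoxda), 11 (hoxcb), 12 (hoxbb), 16 (hoxab), 19 (hoxaa) and 23 (hoxca). Of the 10 longest domains, 7 lay on 5 of these chromosomes, with the neighbouring chromosome 3 domains counted separately. Together the 7 chromosomes held 23.9% of all common wild-type intervals and 30.4% (48 of 158) of those of at least 10 kb. The counts were not tested against each other. Positions were not carried from that assembly to GRCz10, so which domains cover a cluster was not determined this way.

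At 3 loci that are known Polycomb targets, windows were read to the nearest 10 kb from the browser views of the study. The hoxab cluster holds genes that pattern the body axis. In its window of 50 kb H3K27me3 covered 0 and 0 bp in mutants, against 43066 and 37352 bp in wild types. The longest peak there, at chr16:21084214-21126501 in wild-type replicate 1, was 42288 bp wide and ranked 7 in its list by width. In wild-type replicate 2 the longest measured 19327 bp and ranked 15.

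The window of tbx5a and tbx3a, T-box transcription factors of heart and limb development, spans 90 kb. H3K27me3 covered 0 and 0 bp of it in mutants, against 50461 and 44875 bp in wild types. The longest peaks there were 23595 and 21796 bp wide in wild types. At gsc, which encodes the homeodomain protein Goosecoid of the dorsal organizer, the window of 20 kb had 0 and 0 bp in mutants, against 14709 and 13080 bp in wild types, with an enrichment of 6.85 and 5.48 weighted by length. Ezh2 was listed at none of the 3 loci in mutants and at all 3 in both wild types. Rnf2 was listed at all 3 in both wild types as well. In mutants it was listed only in the window of tbx5a and tbx3a, over 556 and 902 bp, against 41679 and 31637 bp in wild types.

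Among common wild-type intervals of at least 1 kb, the highest mean enrichment was found at chr14:2478376-2483382, an interval of 5007 bp. It was not listed in either mutant and had 8.80 and 6.85 in wild types. Ezh2 and Rnf2 were listed there in wild-type replicate 1 only, over 3878 and 516 bp, and H3K4me3 in none of the 6 lists. The next 4, at chr21:7837339-7853426, chr20:48247399-48261870, chr13:28174033-28180582 and chr2:57366228-57371209, had Ezh2 and Rnf2 in both wild types. Of these, H3K4me3 was listed only at the chromosome 2 interval, in mutant replicate 2 alone, over 817 bp.

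Because H3K4me3 can sit inside H3K27me3 domains, its peaks in the wild-type domains were compared between genotypes. Over whole lists, the mean covered length of H3K4me3 in mutants was 113% of that in wild types (n = 3 each, exact permutation p = 0.7, smallest possible 0.1). Within the 158 domains of at least 10 kb, H3K4me3 covered 10.5 ± 4.52% of the bases in mutants and 6.28 ± 2.57% in wild types (SD, n = 3 each, exact two-sided permutation p = 0.2). This difference did not exceed the spread between replicates, and the ranges overlapped.

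In 29 of the 158 domains (18.4%), all 3 mutants had more H3K4me3 than all 3 wild types, and in 0 domains all 3 had less. Over all 3548 common wild-type intervals the same separation was found in 75 (2.11%), and all 3 mutants had less in 5 (0.141%). Over the 17726 regions with H3K4me3 in any list it was found in 408 (2.30%), and the opposite in 62 (0.350%). By width, the separation was found in 0.796% of the intervals below 500 bp, 5.15% from 5 to 10 kb and 18.4% in the domains of at least 10 kb. An interval without H3K4me3 in any list cannot be separate, and a wide interval has more bases in which a peak can fall. By list, H3K4me3 was present in 11.6 to 25.7% of the intervals below 500 bp and in 34.2 to 80.4% of the domains of at least 10 kb. The rise with width is therefore a description. Mutant replicate 3 had the shortest H3K4me3 list of all 6, 7690515 bp, and without it the count was 77. With only H3K4me3 peaks of a −log10 q of at least 5 it was 6.

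In 13 of the 29 domains, no wild-type list had H3K4me3 while all 3 mutant lists did. The longest was the domain at chr17:38284309-38329131, with 3637, 2916 and 1420 bp of H3K4me3 in mutants and 0, 0 and 0 bp in wild types. The domain in the window of gsc, chr17:19321785-19333743, had 1063, 433 and 414 bp in mutants and 0, 0 and 0 bp in wild types. A domain in the window of tbx5a and tbx3a, chr5:71487016-71508958, had 1459, 1168 and 1115 bp in mutants and 155, 0 and 0 bp in wild types. Over the whole window of tbx5a and tbx3a the genotypes overlapped, with 7477, 4084 and 3052 bp of H3K4me3 in mutants and 3299, 4155 and 729 bp in wild types. These domains belong to the 29 because their groups were separate, so their order is a description.

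Like those at gsc and at tbx5a and tbx3a, the next domains were picked from the 29 after their values were seen. At chr5:14694561-14709409, a domain of 14849 bp, H3K4me3 covered 3356, 2191 and 1884 bp in mutants and 0, 0 and 0 bp in wild types. At chr14:5360585-5378875, of 18291 bp, it covered 939, 726 and 995 bp in mutants and again 0 bp in every wild type. At chr24:17107156-17119726, of 12571 bp, where wild types had the mark as well, it covered 4855, 4161 and 3852 bp in mutants and 2287, 1499 and 1532 bp in wild types. None of these domains had an H3K27me3 peak in mutants.

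In the window of the hoxab cluster the genotypes overlapped, with 18843, 13901 and 9551 bp of H3K4me3 in mutants and 13826, 7091 and 10749 bp in wild types. Listed bp over a window is not the measure of the paper, which compared the intensity of H3K4me3 peaks. By that measure the paper found more H3K4me3 in mutants near hoxa13b, tbx5a and gsc. The longest domain on chromosome 23 overlapped as well, with 27503, 22260 and 15542 bp in mutants and 17108, 8511 and 15733 bp in wild types. Among the 10 longest domains the mutant mean of H3K4me3 was higher in 10, and the groups were separate in 2, the chromosome 17 domain and chr9:1957651-2012138. These means are not scaled to the length of the lists, which in mutants was on average 113% of wild type.

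**Figure D4:**
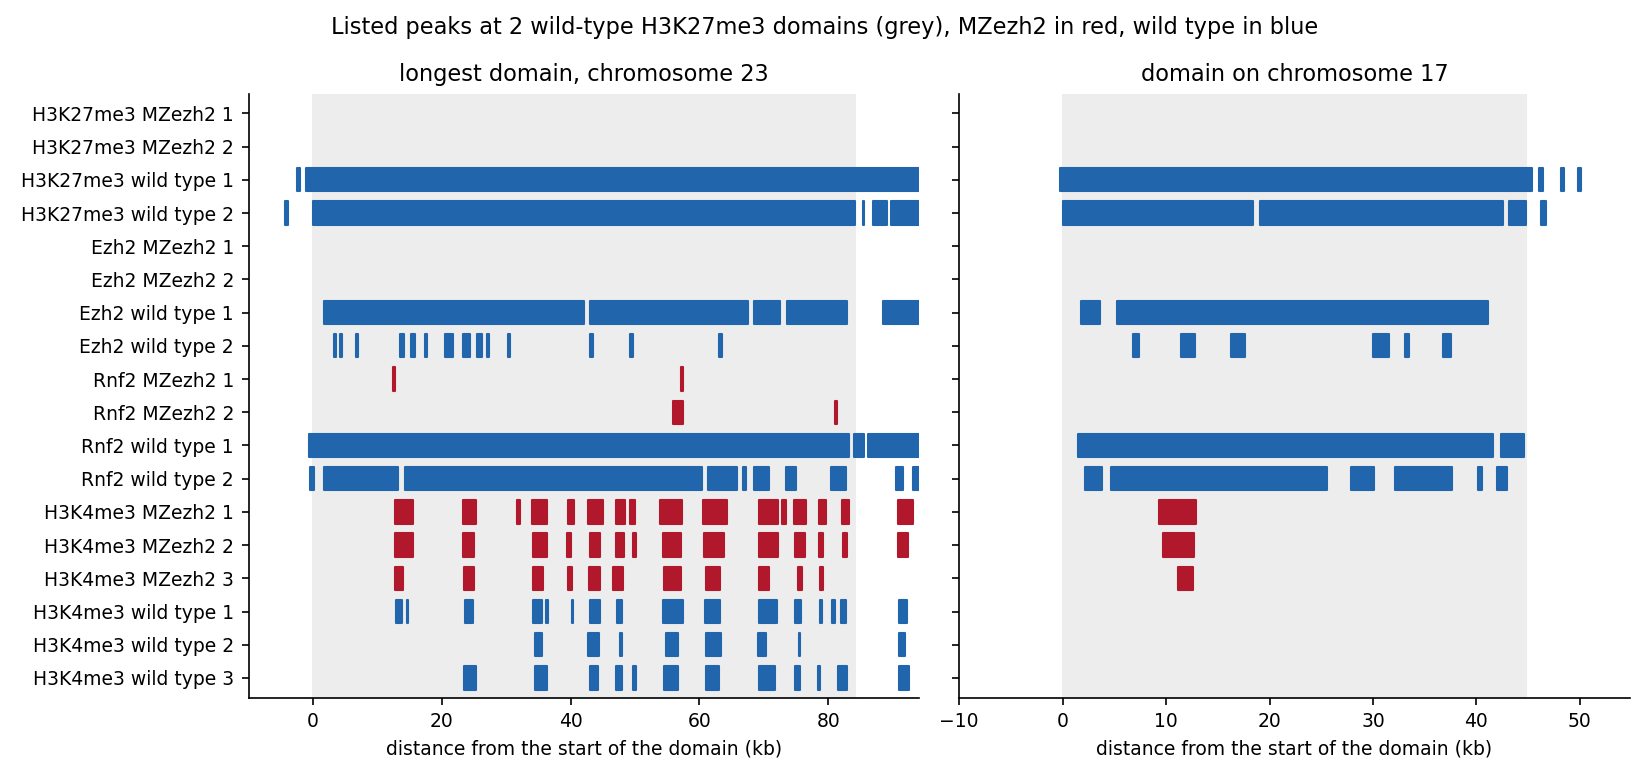
Peaks of every list at the longest H3K27me3 domain common to both wild types (left) and at the chromosome 17 domain (right, chosen after its values were seen), as bars along the distance from the start of the domain in kb, with the domain in grey, MZezh2 mutants in red and wild types in blue. Both domains have no H3K27me3 or Ezh2 bar in mutants, and the chromosome 17 domain has H3K4me3 of 3637, 2916 and 1420 bp in mutants only.

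The peaks that were listed in mutants lay mostly at places also listed in wild types. Of the mutant peaks, 244 (85.0%) in replicate 1 and 480 (63.5%) in replicate 2 lay on an H3K27me3 peak of either wild-type list. On the wild-type list of the same replicate lay 162 (56.4%) and 443 (58.6%). H3K4me3 of a mutant list was present at 217 (75.6%) and 418 (55.3%) of them, and Ezh2 or Rnf2 of a mutant list at 234 (81.5%) and 483 (63.9%). Of the 3548 common wild-type intervals, single mutant lists of H3K4me3 had a peak in 16.5 to 35.2%. For single mutant lists the shares were 0.225 and 5.33% for Ezh2 and 5.75 and 2.59% for Rnf2. The shares at mutant peaks count a peak in any mutant list, and those at intervals take 1 list at a time. They are therefore not on the same scale, and the difference between them was not tested. What an Ezh2 peak stands for in embryos without Ezh2 was not tested. The 4 lists merged into 7555 regions, of which 3099 (41.0%) were in both wild types and no mutant, and 13 (0.172%) in both mutants and no wild type. A further 3811 regions were in 1 wild-type list only.

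At the 123 regions in all 4 lists, a region had to be listed in the short mutant lists, where the lowest listed enrichment was 2.24 and 1.39, against 1.27 and 1.34 in wild types. How far this choice sets the order of the genotypes there was not tested, so the values are a description. Median enrichment at these regions was 4.86 and 3.02 in mutants, against 2.14 and 2.58 in wild types. Both mutant values were above both wild-type values at 105 of the 123, and both were below at 1. Taking the highest peak of each region in place of the mean over its peaks, the count was 108. Within replicate 1 the mutant was higher at 120, and within replicate 2 at 113. These regions were listed with a lower enrichment in wild types than the regions in both wild types alone, where the medians were 4.29 and 4.08.

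The 5 longest common mutant intervals were chosen by their mutant peaks and were listed in all 4 lists, so they add no separate evidence on the order. At chr2:19822021-19827662, of 5642 bp, enrichment was 4.54 and 2.98 in mutants, against 2.37 and 2.58 in wild types, and H3K4me3 was listed in all 6 of its lists. At chr14:19792809-19798182 it was 3.86 and 2.48 in mutants, against 1.76 and 1.95 in wild types. The intervals at chr7:64181628-64185992, chr23:16243847-16247904 and chr2:19816442-19819888 had between 2.13 and 4.28 in mutants and between 1.57 and 2.28 in wild types. Ezh2 was listed in all 5 in mutant replicate 2 and in none of them in mutant replicate 1.

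Covered length was finally followed along the genome. On each of the 25 chromosomes both mutants had less than both wild types (25 of 25, 100%). Mutant mean covered length was a median of 2.28% of wild type over the chromosomes. The lowest value was 0.420%, on chromosome 18, where H3K27me3 covered 309 and 1781 bp in mutants and 305500 and 192670 bp in wild types. The highest was 7.95%, on chromosome 4, with 9518 and 33524 bp in mutants and 318506 and 222756 bp in wild types. Chromosomes 10, 2, 7 and 8 followed with 6.59, 5.58, 4.69 and 4.61%. Mutant replicate 1 had no peak at all on chromosomes 6, 9 and 25.

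Wild-type replicates ranked the chromosomes almost alike (Spearman 0.984 over 25 chromosomes) and mutant replicates less so (0.882), whereas the mean of mutants and the mean of wild types were linked less closely (0.468). Chromosome length is shared by all of these. The longest mean covered length in wild types was 611144 bp on chromosome 7 and the shortest 223278 bp on chromosome 22. Set against H3K4me3 of wild types on the same chromosome, H3K27me3 covered from 0.671 times as much, on chromosome 22, to 1.58 times as much, on chromosome 14.

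Sequences outside the 25 chromosomes held a larger part of the mutant lists. They gave 9.06 and 8.86% of the mutant peaks, against 1.69 and 1.97% of the wild-type peaks. On unplaced sequences alone, 12418 and 45080 bp were covered in mutants and 133055 and 85654 bp in wild types, a ratio of means of 26.3%. The mitochondrial sequence, which has no histones, had 0 and 10493 bp in mutants and 7388 and 436 bp in wild types.

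**Figure D5:**
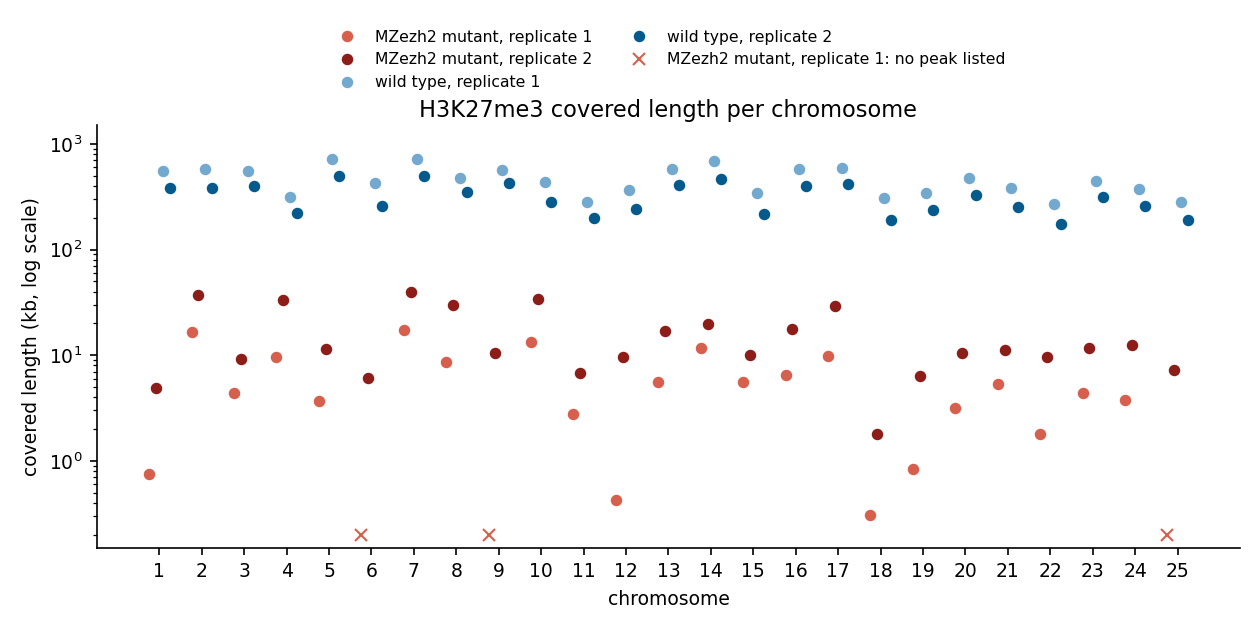
Covered length of H3K27me3 on each chromosome in kb on a log scale, with 1 point per list, MZezh2 mutants left of wild types, and a cross where mutant replicate 1 had no peak. On every chromosome both mutant points lie below both wild-type points, and chromosome 18 has the lowest ratio, 0.420%.

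Within chromosomes the mutant peaks lay in fewer windows than those of wild types. Windows of 1 Mb with at least 1 peak numbered 82 and 269 in mutants and 1255 and 1173 in wild types. The 10 windows with most covered length held 55.7 and 37.1% of it in mutants, against 9.90 and 11.1% in wild types. A list with fewer peaks fills fewer windows and puts a larger share in its top 10. How far list length sets these values was not tested. The mutant replicates had 9 of their top 10 windows in common and the wild-type replicates 10, and no window was among the top 10 of both genotypes in replicate 1 or in replicate 2.

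In the leading mutant windows, chosen by their mutant covered length, the values of the genotypes overlapped in 4 of 10. Both mutants were below both wild types in 4 and above them in 2. The window from 19 to 20 Mb of chromosome 2 had 14769 and 24903 bp in mutants and 17767 and 22515 bp in wild types. The window from 16 to 17 Mb of chromosome 10 had 12034 and 18579 bp in mutants and 9294 and 13646 bp in wild types. In the window from 54 to 55 Mb of chromosome 7, on the other hand, 5278 and 15059 bp were covered in mutants and 44127 and 41555 bp in wild types. The windows from 25 to 26 Mb of chromosome 21 and from 45 to 46 Mb of chromosome 17 were also clearly lower in mutants, with 5022 and 9928 bp and with 4471 and 10307 bp in mutants, against 19690 and 18450 bp and 22269 and 19286 bp in wild types. The leading window of wild-type replicate 1, from 2 to 3 Mb of chromosome 14, had 190344 bp, and that of wild-type replicate 2, from 23 to 24 Mb of chromosome 3, had 139158 bp.

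The other antibodies put these ratios in place. Ezh2 peaks covered 4924 and 290940 bp in mutants, against 4552934 and 943669 bp in wild types. Mutant covered length of Ezh2 was 0.108% of wild type within replicate 1 and 30.8% within replicate 2, so the ratio of the means, 5.38%, rests on very unequal lists. The Ezh2 list of mutant replicate 1 also started at a higher −log10 q than the other Ezh2 lists. For Rnf2, paired by replicate number alone, the ratio was 2.59% within replicate 1 and 5.02% within replicate 2. H3K4me3, paired in the same way, gave 125, 121 and 87.3% within its 3 replicates. In the domains of at least 10 kb, Ezh2 covered 0% of the bases in mutants and 41.1 ± 41.0% in wild types (SD, n = 2 each), and Rnf2 covered 0.613 ± 0.374% in mutants and 75.2 ± 16.5% in wild types (exact permutation p = 0.333 for each, the smallest possible).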

How the data were processed

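ChIP-seq libraries of H3K27me3, Ezh2, Rnf2 and H3K4me3 from 24 hpf embryos were used, grouped by genotype and replicate from the sample labels. RNA-seq files were not used, and the input library was not analysed on its own. The members and the named regions were chosen with earlier results of these data known. The authors mapped reads to GRCz10 with BWA-MEM (BWA 0.7.15 per the submitters' processing notes), removed duplicate and multimapping reads with Picard and samtools, and called broad peaks with MACS2 2.1.1 in each library against wild-type input. The deposited lists give for each peak a score, the mean fold enrichment over input (a ratio), −log10 p and −log10 q, and are neither merged, intersected nor cleared of peaks called on input. They are not scaled to the spike-in. Depth is unknown, so no precision per peak was derived, and listing depends on the depth of each library.

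Peaks were analysed in Python 3.11.15 with pandas 2.3.3, numpy 2.4.6 and scipy 1.17.1. Covered length is the sum of peak widths. Width classes were bounded at 500 bp and 1, 2, 5 and 10 kb. For common intervals, peaks less than 1 kb apart were merged, as in the study, before intersection. Enrichment of an interval is the mean of its peaks weighted by overlap. Groups were compared by exact two-sided permutation tests over lists. Shares have Wilson intervals at 95% (statsmodels 0.14.6). Named regions were the 10 longest common wild-type intervals, the 5 most enriched of at least 1 kb, the 5 longest common mutant intervals and the 3 loci. Replicates are labelled as separate samples, and p-values cover only the spread between them. Same-numbered H3K27me3 samples, and same-numbered Ezh2 samples, were alike in having the spike-in or not. Those of Rnf2 and H3K4me3 are matched by number alone. Whether same-numbered samples shared a batch is not given by the labels. At the 123 regions in all 4 lists, same-numbered samples deviated together with a correlation of 0.189. Places listed only in samples of the same number are left out of these regions, so this value cannot decide on a shared batch. Interval functions were checked on simulated peaks. Alternatives were merging, stricter peaks, other overlaps and leaving out libraries. The H3K4me3 alternatives, and that using the highest peak per region, were chosen after seeing the data.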

Additional observations from a re-analysis of the deposited data

How the results depend on the processing

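Peak number, covered length, median width and the share in peaks of at least 5 kb kept their direction under every alternative run. Median enrichment, 0.365 higher in mutants as listed, turned to −0.906 with a −log10 q of at least 5. It turned to −0.425 with peaks of at least 500 bp and to −0.900 with the 250 highest scores, and in both the genotypes overlapped. The cause was not tested. Leaving out libraries gave ratios of 0.0415 to 0.143 for peak number and 0.0125 to 0.0558 for covered length, differences of −522.5 to −358.5 bp in width, 0.107 to 0.622 in enrichment and −39.1 to −37.0 points in the share, and 0.978 to 4.17% for the median chromosome. As a replicate block, the mean within-replicate ratio was 0.0923 for peak number and 0.0342 for covered length (2 pairs, smallest p 0.5), and it changed no direction. Common intervals fell to 110 in mutants and 2104 in wild types with an overlap of 50% of both, to 978 in wild types at a −log10 q of at least 5 and to 85 in mutants at 500 bp or more. The share of wild-type intervals without a mutant peak was then 95.2% (50% overlap), 84.05% (−log10 q of at least 5) and 96.9% (500 bp). With 1 replicate there were 236 to 637 merged peaks in mutants and 4619 to 6266 in wild types, and the share was 91.5 to 97.8%. At a −log10 q of at least 5, the ratio of peak numbers was 0.223, since 27.03 and 26.12% of the wild-type peaks passed, against 72.8 and 68.3% of the mutant peaks. Merging at 3 kb gave longest mutant domains of 23450 and 25837 bp and brought the difference in the share to −3.29 points.

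H3K4me3 separation in the 158 domains was found in 31 when scaled to each list's length and in 29 to 77 without 1 library. Counting peaks in at least 1 wild-type list, Ezh2 was in 39.8%, Rnf2 in 46.6% and H3K4me3 in 30.8% of the wild-type intervals.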
